A study of Mus musculus with 2 samples.

Results

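Glycolysis splits glucose into pyruvate in the cytosol, and at several of its steps mammals carry more than 1 gene for the same reaction. Here, 10 genes of this kind were followed in single cells of the murine retinal pigment epithelium (RPE): Hk1 and Hk2 (hexokinases), Pfkp (a phosphofructokinase), Aldoa and Aldoc (aldolases), Eno1 and Eno2 (enolases), Pkm (pyruvate kinase), and Ldha and Ldhb (lactate dehydrogenase subunits). They were chosen by gene symbol, and all 10 were found among the 27998 genes listed. The questions were which member of each of 4 pairs (Aldoa and Aldoc, Ldha and Ldhb, Hk1 and Hk2, Eno1 and Eno2) was used, and whether this differed between cells rich and poor in Ttr, the gene of the thyroid hormone carrier transthyretin that RPE cells express strongly.

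RPE cells came from 2 male C57BL/6J mice, R1 and R2, at postnatal day 36 by the protocol and 4 to 5 weeks old by the sample labels, without any treatment. Both eyes of a mouse were pooled. RPE sheets were released with trypsin after cornea, iris, lens and retina had been taken off, and viable single cells (DAPI-negative, calcein-positive) were sorted and applied to the 10x Genomics droplet platform. Transcripts are tagged there with unique molecular identifiers (UMIs), and a value counts the tagged molecules of a gene in a cell.

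R1 held 2844 cell barcodes with 26034378 UMIs and R2 held 2994 with 29732969 UMIs. After removal of low-quality cells and likely doublets, 2671 and 2847 cells remained. Cells with Ttr at 5% of UMIs or more are called Ttr-high and cells under 3% Ttr-low. The Ttr-high class had 2612 cells in R1 and 2828 in R2, the Ttr-low class 59 (2.21%) and 19 (0.667%), and no cell lay between the limits. The highest Ttr-low cell stood at 2.66% in R1 and 0.755% in R2, and the lowest Ttr-high cell at 5.20% and 5.14%. Ttr-low cells were shallower, with a median of 3200 and 3836 UMIs against 8433.5 and 7687, and had a higher median share of mitochondrial UMIs, 2.57% and 3.35% against 1.30% and 1.26%. A total of 12 barcodes occurred in both mice, none of them in a Ttr-low cell.

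The labels call all cells RPE. The 5 RPE markers Rpe65, Rlbp1, Best1, Rgr and Lrat summed to 303 and 344 UMIs per 10000 in Ttr-high cells but to 24.6 and 12.2 in Ttr-low cells, where Best1 was at 0. Best1 was also near 0 in Ttr-high cells, at 0.00294 and 0.00408. A list of 12 genes named after Pax6, a transcription factor of eye development, and the secreted glycoprotein Dkk3 summed to 281 and 202 UMIs per 10000 in Ttr-low cells against 15.3 and 10.2 in Ttr-high cells. Most of this sum came from pigment cell genes of the list, with Dct, a melanin synthesis enzyme, at 123 and 77.4 and Mlana, a melanosome protein, at 52.7 and 34.0. Pax6 itself stood at 7.02 and 4.61 and Dkk3 at 15.7 and 17.3. Several genes of the list, Dct, Mlana, Pax6 and Dkk3 among them, were reported by the study as markers of its smallest cell cluster in these same mice. The higher sum in Ttr-low cells is therefore a description and no independent evidence of what the cells are. The study also reported Aldoc as higher in that cluster in both mice. It named Pkm and Tpi1, another glycolysis gene, as more abundant there. That cluster came from unsupervised clustering and not from a limit on Ttr. In R2 it held more cells than the Ttr-low class, so the 2 sets of cells are not the same. At least 3 genes of that list were found in 56 of 59 and 16 of 19 Ttr-low cells, and also in 1748 and 1255 of the deeper Ttr-high cells. At least 3 genes of a microglia or fibroblast list were found in 5 Ttr-low cells of R1 (2 microglia, 3 fibroblast) and 3 of R2 (1 and 2). Photoreceptor and T cell markers were at 0 in Ttr-low cells of both mice. They were also low in Ttr-high cells, at 0.105 and 0.0371 UMIs per 10000 for photoreceptor and 0.000419 and 0 for T cell genes. The Muller glia list was higher in Ttr-low cells, at 1.40 and 0.878 against 0.0734 and 0.0719, with 18 Gfap UMIs from 1 cell in R1. Mural and melanocyte lists were lower, and endothelium and erythrocyte lists differed in direction between mice. The Ttr-low class is therefore called by its rule and given no cell type.

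In the textbook account, aldolase A is the muscle form and aldolase C the brain form of the enzyme that cleaves fructose-1,6-bisphosphate. The LDHA subunit is known from tissues that make lactate and LDHB from tissues that oxidize it. RPE cells stand between the choroidal blood supply and the photoreceptors. They pass glucose on to the photoreceptors and take up the lactate these release.

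Of the 9 members tested, Aldoc differed most between the classes. It supplied 48.2% of the aldolase UMIs of Ttr-low cells in R1 and 43.0% in R2, against 2.76% and 2.47% in Ttr-high cells. Ldha was higher in Ttr-low cells as well, and the Ldhb share was lower. The levels of Aldoa, Ldhb, Eno1 and Hk1 per 10000 UMIs differed between classes by at most 1.50 times in either mouse, and Hk2 was at or near 0 in both classes.

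**Figure D1:**
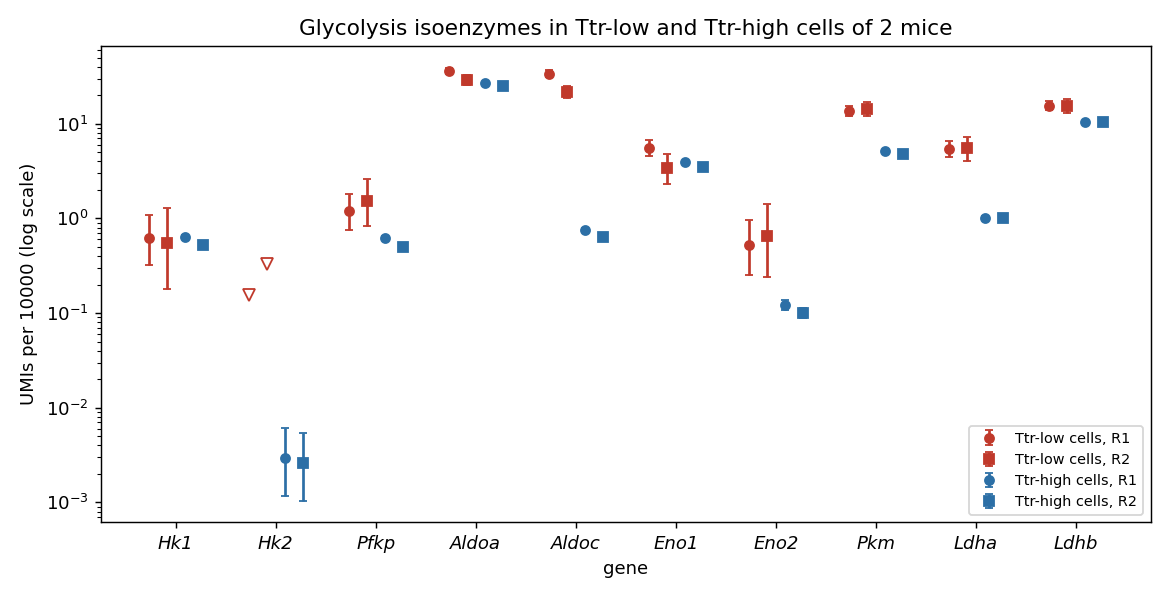
Level of the 10 genes, in UMIs per 10000 on a log axis, in Ttr-low (red) and Ttr-high (blue) cells of R1 (circles) and R2 (squares), with exact 95% Poisson intervals. Open triangles mark the limit that a count of 0 allows (3 counts), used for Hk2 in Ttr-low cells; Aldoc lies at 33.8 and 21.7 in Ttr-low and at 0.762 and 0.630 in Ttr-high cells.

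The isoenzymes of a pair differ enough in sequence to be told apart. Over the aligned coding sequence, Aldoa and Aldoc were identical at 75.7% of bases, Ldha and Ldhb at 71.5%, Hk1 and Hk2 at 70.9%, and Eno1 and Eno2 at 75.1%. The longest run of identical bases in a pair was 27. No 50-base window of the last 500 transcript bases, where 3′ libraries are read, was shared within a pair. To show how different the transcripts of the pairs with the largest shifts are, 90 aligned coding bases near the 3′ end of the reading frame are given 5′ to 3′ from GENCODE M21 transcripts (GRCm38), with the bases that differ between partners in capitals. These are coding bases 969 to 1058 of both aldolases, 38 of which differ, and bases 900 to 989 of Ldha and 903 to 992 of Ldhb, 35 of which differ.
Aldoa: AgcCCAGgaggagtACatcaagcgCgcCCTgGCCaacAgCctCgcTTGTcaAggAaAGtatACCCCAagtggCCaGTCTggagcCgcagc
Aldoc: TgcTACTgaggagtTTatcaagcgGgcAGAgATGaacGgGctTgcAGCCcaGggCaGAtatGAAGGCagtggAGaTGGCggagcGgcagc
Ldha: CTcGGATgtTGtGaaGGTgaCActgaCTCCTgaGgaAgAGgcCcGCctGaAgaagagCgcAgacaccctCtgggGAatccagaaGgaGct
Ldhb: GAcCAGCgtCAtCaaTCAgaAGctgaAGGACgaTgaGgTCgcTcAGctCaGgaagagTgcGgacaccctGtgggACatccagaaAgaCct

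Hexokinase starts the pathway by phosphorylating glucose. Hk1 (chromosome 10, 62268855 to 62379908, minus strand) gave 12 UMIs in Ttr-low cells of R1 and 5 in R2, or 0.624 and 0.549 per 10000, and 0.632 and 0.527 in Ttr-high cells. The classes overlapped. Hk2 (chromosome 6, 82725025 to 82774454, minus strand) gave 0 UMIs in Ttr-low cells of both mice, which allows up to 0.156 and 0.329 per 10000, and 7 UMIs in Ttr-high cells of each mouse, or 0.00294 and 0.00260 per 10000. The Hk2 share of the pair was 0.463% and 0.490% in Ttr-high cells. With 0 of 12 and 0 of 5 UMIs in Ttr-low cells, shares of up to 26.5% and 52.2% lie within the intervals, so a difference in hexokinase use was not detectable at this depth.

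Pfkp (chromosome 13, 6579768 to 6648777, minus strand), the platelet form of phosphofructokinase, stood at 1.20 and 1.54 UMIs per 10000 in Ttr-low cells and at 0.620 and 0.495 in Ttr-high cells. The Ttr-low values rested on 23 and 14 UMIs, and lay above the Ttr-high values in both mice. At its 3′ end the gene overlaps Pitrm1, on the other strand, by 748 bases. Every 50-base window of its last 500 bases occurred in a transcript of 1 other gene when both strands were searched. Those windows may be this same overlap rather than a further shared sequence.

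Aldoc (ENSMUSG00000017390, chromosome 11, 78322968 to 78327781, plus strand) gave 651 UMIs in the 59 Ttr-low cells of R1 and 198 in the 19 cells of R2, or 33.8 and 21.7 per 10000. In Ttr-high cells it gave 1817 and 1698 UMIs, or 0.762 and 0.630 per 10000. The ratio of the classes was 44.4 in R1 (95% interval 40.5 to 48.6) and 34.5 in R2 (29.6 to 40.0). Intervals here cover counting error only. Per cell, Ttr-low cells held 11.0 and 10.4 Aldoc UMIs against 0.696 and 0.600, although their total UMI count was lower.

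Aldoa (ENSMUSG00000030695, chromosome 7, 126795234 to 126800751, minus strand) was the most abundant member in both classes. It overlaps Fam57b, on the other strand, by 3084 bases, and whether the counting used strand is not given in the sources used here. Its level was 36.4 and 28.8 UMIs per 10000 in Ttr-low and 26.9 and 24.9 in Ttr-high cells. With Ttr left out of the totals these became 36.7 and 28.9 against 30.3 and 28.5, so that in R2 the classes were nearly level. Per cell, Ttr-low cells held 11.9 and 13.8 Aldoa UMIs against 24.5 and 23.7. Both aldolases together reached 70.2 and 50.5 UMIs per 10000 in Ttr-low against 27.6 and 25.5 in Ttr-high cells.

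The Aldoc share of aldolase UMIs was 48.2% in R1 (651 of 1351 UMIs, exact Clopper-Pearson 95% interval 45.5 to 50.9) and 43.0% in R2 (198 of 460, 38.5 to 47.7) in Ttr-low cells. In Ttr-high cells it was 2.76% (2.63 to 2.88) and 2.47% (2.35 to 2.59). The difference was 43.0 ± 3.43 percentage points (SD, n = 2 mice), in the same direction in both. With 2 mice, an exact permutation test within mice cannot go below p = 0.5, so shares are described and not tested.

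**Figure D2:**
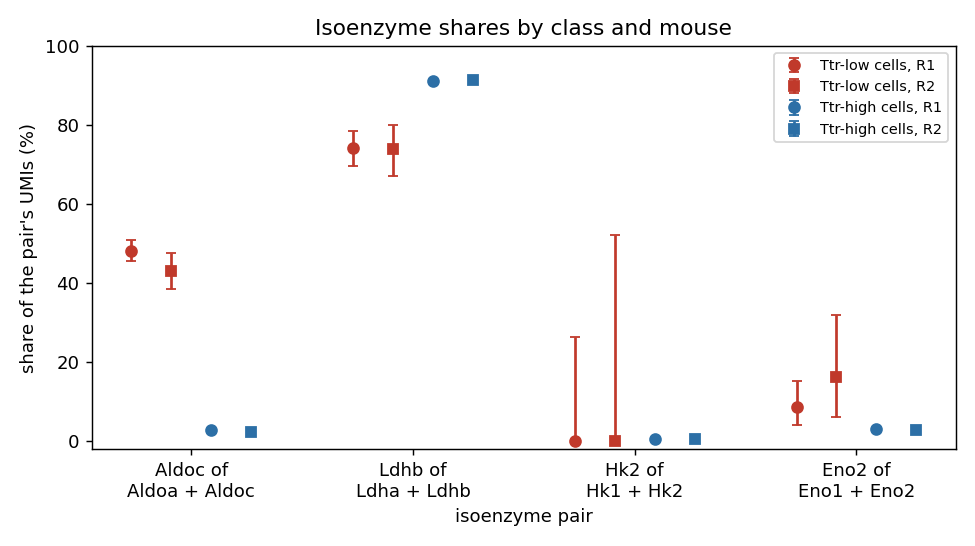
Share of each pair's UMIs that belong to the second member, in percent, in Ttr-low (red) and Ttr-high (blue) cells of R1 (circles) and R2 (squares), with exact 95% Clopper-Pearson intervals. Aldoc and Ldhb shares of the classes lie apart in both mice, whereas the Hk2 intervals of Ttr-low cells reach 26.5% and 52.2%.

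Single cells showed the same shift. An Aldoc UMI was found in 51 of 59 (86.4%) and 16 of 19 (84.2%) Ttr-low cells and in 36.9% and 31.0% of Ttr-high cells. With each cell thinned to 2000 UMIs, which left out no cell, these shares were 84.7% and 73.7% against 12.7% and 11.2%. More Aldoc than Aldoa UMIs were counted in 25 of 59 and 7 of 19 Ttr-low cells, but in 3 of 2612 and 1 of 2828 Ttr-high cells. Between the lower and upper quartiles, Ttr-low cells ranged from 10.6 to 53.6 Aldoc UMIs per 10000 in R1 and from 4.73 to 44.4 in R2, so the class was not uniform.

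**Figure D3:**
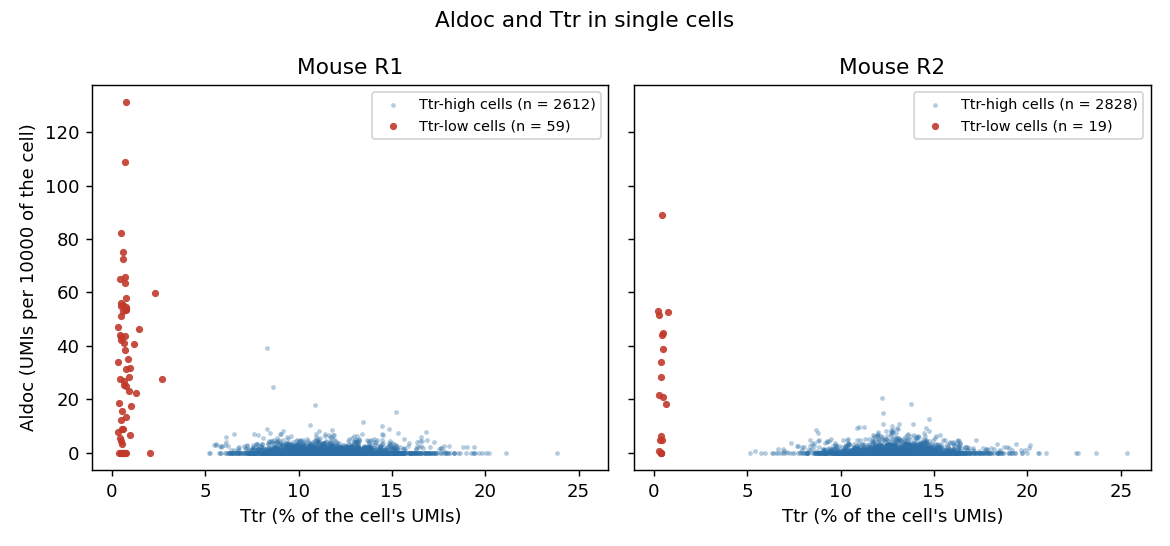
Aldoc (UMIs per 10000 of the cell) against Ttr (percent of the cell's UMIs) in single cells of R1 and R2, with 59 and 19 Ttr-low cells in red and 2612 and 2828 Ttr-high cells in blue. No cell lies between 3 and 5% Ttr, and most Ttr-low cells lie above nearly all Ttr-high cells.

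All Aldoc UMIs of the Ttr-low class came from the 54 and 16 cells that carried the Pax6 and Dkk3 list but no list of another cell type. The 5 and 3 cells with microglia or fibroblast markers gave 0 Aldoc UMIs, beside 17 and 9 of Aldoa. Without these cells the Aldoc share of the class was 48.8% and 43.9%. The study reported Aldoc and several genes of the Pax6 and Dkk3 list as higher in the same cluster of these mice. That they occurred in the same cells is thus no independent evidence of what the cells are.

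Within Ttr-high cells the Aldoc share varied little with Ttr. It ranged from 2.64% to 3.04% in R1 and from 2.44% to 2.63% in R2 over bands of 5 to 10, 10 to 15 and at least 15% Ttr. When these cells were split into 3 groups of equal size by depth, it was lowest in the deepest group of both mice, at 2.41% and 2.15%. The number of Aldoc UMIs per UMI of 5 genes of the list differed between classes, and not in 1 direction. Per Dkk3 UMI, Ttr-low cells gave 2.15 and 1.25 Aldoc UMIs and Ttr-high cells 4.43 and 7.13, and per Pax6 UMI 4.82 and 4.71 against 15.5 and 23.3. Per Map1b UMI the values were 4.75 and 4.83 against 45.4 and 62.9, and per Reln UMI 9.04 and 6.39 against 182 and 340, the latter on 10 and 5 Reln UMIs. Per Mlana UMI they ran the other way, 0.642 and 0.639 against 0.392 and 0.462. After subtraction of 10% ambient RNA, the difference in the Aldoc share between classes was 45.1 instead of 43.0 percentage points. The ambient profile was the sum of all kept cells, most of them Ttr-high. It was thus close to the profile of Ttr-high cells, and subtracting it could hardly move their Aldoc share. The part of free RNA in the low Aldoc level of Ttr-high cells was not tested.

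Of 13148 genes ranked by their correlation with Aldoc across all 2671 and 2847 cells, taking the lower value of both mice, the first 3 were Reln (Pearson's r of 0.46 in R1 and 0.33 in R2), Papss2 (0.33 and 0.25) and Gm20383 (0.47 and 0.25). Cells share their library and differ in depth and class, so these values only describe an order, which in R1 alone would put Gm20383 before Reln and Map1b (0.45) before Papss2. Reln encodes the secreted protein reelin, and stood at 3.74 and 3.40 UMIs per 10000 in Ttr-low and at 0.00419 and 0.00185 in Ttr-high cells. Papss2, which makes the sulfate donor PAPS, stood at 1.61 and 2.63 against 0.00461 and 0.00297. Among the members, Ldha ranked first with r of 0.18 and 0.05, but Ldhb was nearly level at 0.16 and 0.05.

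Eno1 (chromosome 4, 150236721 to 150248879, plus strand) encodes the widespread enolase of the later part of the pathway. It stood at 5.56 and 3.40 UMIs per 10000 in Ttr-low and at 3.95 and 3.45 in Ttr-high cells, and in R2 the Ttr-low interval (upper bound 4.83) took in the Ttr-high value. A share of 75.2% of the 50-base windows near its 3′ end also occurred in transcripts of other genes, pseudogenes among them, so its counts are uncertain. Eno2 (chromosome 6, 124760053 to 124769673, minus strand), the neuronal enolase, stood at 0.520 and 0.659 in Ttr-low and at 0.122 and 0.0997 in Ttr-high cells, on 10 and 6 UMIs in the former. Its share of the pair was 8.55% (4.17 to 15.2) and 16.2% (6.19 to 32.0) against 3.01% and 2.81%, a difference of 9.47 ± 5.56 percentage points (SD, n = 2 mice). Of the 6 Eno2 UMIs in R2, 2 came from the cells with fibroblast markers.

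Pkm (chromosome 9, 59656368 to 59679375, plus strand), whose M1 and M2 forms are not told apart by these counts, stood at 13.5 and 14.3 UMIs per 10000 in Ttr-low and at 5.13 and 4.74 in Ttr-high cells. The ratio of the classes was 2.63 (2.32 to 2.98) and 3.01 (2.51 to 3.58). Per cell the values were 4.41 and 6.84 UMIs against 4.68 and 4.52, so that in R1 a Ttr-low cell held no more Pkm UMIs than a Ttr-high cell.

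Lactate dehydrogenase interconverts pyruvate and lactate. Ldha (ENSMUSG00000063229, chromosome 7, 46841475 to 46855627, plus strand) gave 5.41 and 5.49 UMIs per 10000 in Ttr-low and 1.02 and 1.01 in Ttr-high cells, a ratio of 5.29 (4.31 to 6.44) in R1 and 5.44 (4.03 to 7.20) in R2. Ldhb (ENSMUSG00000030246, chromosome 6, 142490249 to 142507957, minus strand) gave 15.5 in Ttr-low cells of both mice and 10.4 and 10.5 in Ttr-high cells. Both mice gave nearly the same values within a class. After thinning to 2000 UMIs, an Ldha UMI was found in 61.0% and 52.6% of Ttr-low against 17.4% and 15.6% of Ttr-high cells.

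Ldhb remained the larger part of the pair in both classes. Its share was 74.2% (69.6 to 78.4) and 73.8% (67.0 to 79.9) in Ttr-low cells and 91.0% and 91.3% in Ttr-high cells. The share was lower in Ttr-low cells by 16.8 and 17.4 percentage points, given as a difference of -17.1 ± 0.421 (SD, n = 2 mice). This SD is far smaller than the counting intervals of the Ttr-low shares and is no measure of the precision of the difference. In cells with microglia or fibroblast markers the Ldhb share was 2 of 5 and 2 of 8 UMIs. A share of 24.4% of the windows near the 3′ end of Ldhb also occurred in 1 other gene, a pseudogene, and none of those of Ldha did.

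UMIs were then summed per mouse and class and tested over all genes with edgeR's quasi-likelihood test, paired by mouse, with p-values adjusted by Benjamini-Hochberg and a threshold of 0.05. Of 11488 genes tested, 10.4% were called, 4.24% higher and 6.2% lower in Ttr-low cells. Of the 10 members, 9 passed the filter on low counts and 2 were called, both higher, while Hk2 was not tested. Aldoc had a log2 fold change of 4.55 (SE 0.393, edgeR adjusted p = 2.00e-28, between 1.50e-95 and 2.01e-22 under the alternatives). Ldha had 1.69 (SE 0.359, edgeR adjusted p = 6.39e-05, between 5.29e-16 and 0.000631). With 4 sums from 2 mice, this fit took its variance almost wholly from all genes together. Its p-values therefore do not measure a gene's own spread between mice.

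The median of the 9 members was 0.53, beside a median of -0.34 over all genes tested. That last value depends on TMM, the scaling for library composition, and was -0.288 with TMM in simulated sums with no gene changed. Without TMM the all-gene median was 0.38, calls that were higher made up 74.0% instead of 40.6% of all calls (63.3% with DESeq2), and the member median was 1.27. Of the 11488 genes, 1098 were called higher and 386 lower without TMM. Aldoa, Eno1, Ldhb and Hk1 were not called in either fit and had values below 0 with TMM (-0.42, -0.47, -0.17 and -0.70) and above 0 without (0.34, 0.28, 0.58 and 0.02). Pkm had 0.75 (SE 0.341, edgeR adjusted p = 0.172), Eno2 1.64 (SE 0.760, edgeR adjusted p = 0.189) and Pfkp 0.53 (SE 0.472, edgeR adjusted p = 0.654), and these 3 were called higher without TMM. Aldoc and Ldha lay 4.89 and 2.03 above the all-gene median. Shares within a pair do not depend on the scaling.

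**Figure D4:**
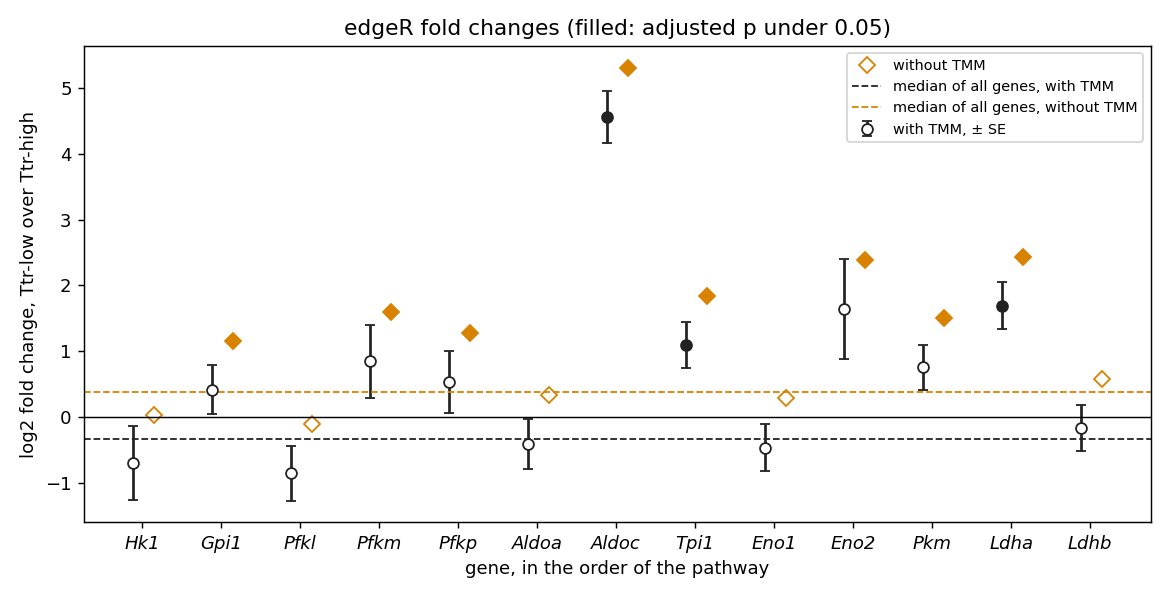
edgeR log2 fold changes of Ttr-low over Ttr-high cells for 9 members and 4 further enzymes in pathway order, with TMM (black circles, bars are ± SE) and without (orange diamonds), filled where the adjusted p is under 0.05. Dashed lines give the all-gene medians of -0.34 and 0.38; Aldoc, Ldha and Tpi1 are filled in both fits.

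Of 20 further glycolysis genes, 10 passed the filter on low counts, 1 was called higher and 0 lower (3 higher without TMM). Over all genes tested, 4.24% were called higher and 6.2% lower. The list's median was -0.51 over these 10 genes, -0.17 without Pgam1, and 0.12 without Pgk1 and Pgam1. It thus lay below the all-gene median of -0.34 with Pgam1 and above it without. Pgk1 and Pgam1 had very low counts, but Ldhd (123 UMIs) and Eno3 (559 UMIs) were low as well and stayed in. The values without Pgk1 or Pgam1 were chosen after seeing the data. Tpi1, the triose phosphate isomerase that acts on the products of aldolase, stood at 5.98 and 5.49 UMIs per 10000 against 1.71 and 1.53. Its log2 fold change was 1.09 (SE 0.351, edgeR adjusted p = 0.0218), and it was called under 10 of 11 alternatives, with an adjusted p of 0.0577 after subtraction of 10% ambient RNA.

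Gpi1, glucose-6-phosphate isomerase, stood at 4.05 and 2.63 against 1.63 and 1.39 UMIs per 10000, with a log2 fold change of 0.41 (edgeR adjusted p = 0.657). The phosphofructokinase genes other than Pfkp did not move alike in value. Pfkm stood at 0.676 and 1.43 against 0.331 and 0.320, and Pfkl at 1.09 and 1.87 against 1.58 and 1.48, with log2 fold changes of 0.84 and -0.85 (edgeR adjusted p = 0.467 and 0.228).

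Several abundant enzymes of the pathway were nearly missing from the counts. Gapdh gave 19 UMIs in all kept cells, all of them in Ttr-high cells, Pgam1 77 and Pgk1 544, beside 8368 of Tpi1 and 132136 of Aldoa. Of the windows near the 3′ end, 90.5% for Gapdh, 7.32% for Pgk1 and 0% for Pgam1 also occurred in other annotated genes. Eno1b gave 2 UMIs in all, and 82.3% of its windows were shared. Whether shared sequence lowered these counts was not tested. Pgk1 and Pgam1 passed the filter and are among the 10 genes tested, with 2 and 0 UMIs in Ttr-low cells over both mice, and neither was called (edgeR adjusted p = 0.725 and 0.776).

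Of 16 regulators of glycolysis and pyruvate entry, 12 were tested and 1 was called higher, beside 4.24% of all genes tested. The called regulator was Pdha1, a subunit of the pyruvate dehydrogenase that feeds pyruvate into the citric acid cycle. It stood at 1.72 and 1.32 against 0.368 and 0.333 UMIs per 10000. A share of 18.6% of the windows near its 3′ end also occurred in 1 other gene. Its log2 fold change was 1.39 (SE 0.491, edgeR adjusted p = 0.0445), and 6 of 11 alternatives called it, with adjusted p of up to 0.116.

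Of 6 transport genes, 4 were tested and 3 were called lower, in both fits. With TMM, 6.2% of all genes tested were called lower. Slc16a8 and Slc16a1 encode the monocarboxylate transporters MCT3 and MCT1, which carry lactate across the RPE cell membrane, and Bsg encodes basigin, their chaperone. Slc16a8 stood at 1.61 and 0.659 UMIs per 10000 in Ttr-low against 32.8 and 30.5 in Ttr-high cells, a log2 fold change of -5.47 (SE 0.482, edgeR adjusted p = 3.02e-27). Slc16a1 stood at 0.884 and 0.439 against 6.71 and 6.63, with -3.96 (SE 0.443, edgeR adjusted p = 4.74e-17).

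Bsg stood at 25.9 and 23.6 against 94.0 and 90.7 UMIs per 10000, with a log2 fold change of -2.64 (SE 0.458, edgeR adjusted p = 3.09e-07). The glucose transporter gene Slc2a1 stood at 15.2 and 16.2 against 9.19 and 8.88, with 0.06 (edgeR adjusted p = 0.962), and was called higher without TMM.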

How the data were processed

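Per the labels and the study's methods, the authors demultiplexed reads with bcl2fastq 2.20.0.422, aligned them to GRCm38 and deposited the UMI counts that Cell Ranger 1.2.0 gave for each mouse, as whole numbers without normalization and before removal of ambient RNA, doublets or low-quality cells. Barcodes under 500 detected genes or above 5% mitochondrial UMIs were dropped, which kept 2782 and 2966, as were the 4% with the highest doublet score (111 and 119 cells, none Ttr-low), from artificial doublets making up 25% of profiles among the nearest 1% in 10 principal components of 2000 variable genes. Levels are UMIs summed over the cells of a class per 10000 UMIs. A UMI is 1 molecule whatever the transcript's length, so no length scaling was applied, but capture can differ between genes. With 192400 and 91115 UMIs in the Ttr-low classes against 23841292 and 26968315, Ttr-low values limit the precision.

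Sums of 4 libraries were tested with edgeR 4.0.16 (R 4.3.3), with TMM, filterByExpr and the mouse as a block, because both classes came from the same animal, and DESeq2 1.42.0 was an alternative. The SE of an edgeR log2 fold change was derived as its absolute value divided by the square root of the F statistic. Tested on simulated data for Ttr-low against Ttr-high sums, edgeR recovered 116 of 200 genes at a log2 change of 2 (122 calls over 11123 genes) and 196 of 200 at 4 (203 calls over 11144 genes), and called 0 with none changed. The changed genes were drawn from genes abundant in Ttr-high cells, and both classes otherwise shared the same profile and a common dispersion. Recovery of sparse genes such as Eno2, and the real difference in composition between classes, were thus not covered. Transcript comparisons used GENCODE M21 and BLAST 2.17.0. Named genes were the members, called genes of 3 fixed lists (20 pathway, 16 regulator, 6 transport genes), Gapdh, Gpi1, Tpi1, Pgk1, Pgam1, Pfkl, Pfkm and Eno1b, class markers, and the 3 genes most correlated with Aldoc. Members and lists were chosen with earlier results of these data known.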

Additional observations from a re-analysis of the deposited data

How the results depend on the processing

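Aldoc and Ldha were called higher under all 11 alternatives tested (DESeq2, no TMM, no low-count filter, no mouse block, other cell filters and class limits, marked cells left out, and ambient RNA subtracted). Some of these could change little. Doublet removal took out no Ttr-low cell, and the limit of 1% Ttr kept the same 19 Ttr-low cells in R2. The ambient profile subtracted was that of all kept cells, most of them Ttr-high. Without the replicate block, which ignores that both classes of a mouse are paired, 2192 genes and 4 members (Aldoc, Ldha, Pkm and Eno2) were called instead of 1199 and 2. Without TMM 1484 genes and 5 members (Aldoc, Ldha, Pkm, Eno2 and Pfkp) were called. In that fit the log2 fold changes of Aldoa (0.34), Eno1 (0.28), Ldhb (0.58) and Hk1 (0.024) turned positive. The difference in the Aldoc share became 35.9 percentage points as a mean over cells of each cell's own share. That in the Ldhb share became -16.5 without the mitochondrial limit, -15.9 without marked cells and -18.2 after subtraction of ambient RNA. It became -20.4 as a mean over cells and -19.6 after thinning. The difference in the Hk2 share became -0.454 after subtraction of ambient RNA. These share shifts are listed because they exceeded the SD over 2 mice, which was only 0.421 for Ldhb but 5.56 for Eno2. Within that SD, the difference in the Eno2 share, 9.47, became 7.15 without marked cells, 7.82 after thinning and 13.0 as a mean over cells. The median log2 fold change of the 10 further glycolysis genes tested, -0.51, became -0.17 without Pgam1 and 0.12 without Pgk1 and Pgam1, alternatives chosen after seeing the data. The causes were not tested. In single mice, the difference ranged from 40.6 to 45.4 for Aldoc, from -17.4 to -16.8 for Ldhb, from -0.490 to -0.463 for Hk2 and from 5.54 to 13.4 for Eno2, which without R1 was larger than without R2 and rested on 6 and 10 Eno2 UMIs. Depth limits the hexokinases and Eno2 most.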

Other observations

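Spag5 and Pigs, which lie next to Aldoc on the same strand of chromosome 11, were looked at after their values were seen. Spag5, a mitotic spindle gene, ends 510 bases before Aldoc starts, and gave 57 UMIs in 59 Ttr-low cells of R1 and 14 in 19 cells of R2, or 2.96 and 1.54 UMIs per 10000. In Ttr-high cells it gave 13 and 12 UMIs, or 0.00545 and 0.00445 per 10000. Its log2 fold change was 8.04 (SE 0.663, edgeR adjusted p = 3.64e-31). Pigs, which starts 633 bases after the end of Aldoc, gave 3 and 0 UMIs in Ttr-low cells and 0.499 and 0.449 per 10000 in Ttr-high cells, with a log2 fold change of -2.96 (SE 0.871, edgeR adjusted p = 0.00907). Pigs lost the call under 2 of 11 alternatives, without TMM (-2.26, edgeR adjusted p = 0.0834) and with DESeq2 (-3.11, adjusted p = 0.109), while Spag5 was called under all 11 alternatives.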
